A study of Mus musculus with 48 samples.

Results

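The data described here are the peak lists of H3K4me1, histone H3 monomethylated at lysine 4, from neuronal nuclei of mice with a conditional knockout of Setd1b (cKO) and of control mice, and they make up 8 of the 48 libraries of the series. The members are the 4 libraries labelled neuron H3K4me1 cKO and the 4 labelled neuron H3K4me1 Control, and all comparisons were made on chromosomes 1 to 19. According to the labels, animals of both genotypes were adult C57BL/6J mice of 4 to 6 months, the material was hippocampal CA neurons, and chromatin was precipitated with an Abcam H3K4me1 antibody from fixed neuronal nuclei that had been sorted by fluorescence. The labels give the genotypes as Setd1b cKO and control and name no Cre driver, and nothing in them says whether the numbered replicates are separate animals, so the p-values measure the spread between these libraries. Peak lists of H3K4me3 (8 libraries), H3K27ac (7) and H3K9ac (7) from the same type of nuclei and 6 neuron RNA libraries were used to place the H3K4me1 peaks.

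Setd1b encodes one of the methyltransferases of the Set1 and MLL families, which methylate lysine 4 of histone H3 in a complex with shared subunits. The trimethylated form, H3K4me3, marks the starts of active genes, where it usually spreads further downstream than upstream. H3K4me1 is the typical mark of enhancers, where it is found with H3K27ac when the enhancer is active, and at active promoters it lies as shoulders on both sides of the H3K4me3 domain and is low at the start itself. In neurons, long H3K4me3 domains are found at genes of neuronal identity and synaptic function, and short ones at the CpG-rich starts of genes that most cells use.

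The results turn on where H3K4me1 lay relative to the gene start. The promoters of 6 genes are therefore shown, each as the 250 bases upstream of the start on the gene's strand, taken from RefSeq (GRCm38.p6), with CG dinucleotides in capitals. Trmt5, which encodes a tRNA methyltransferase (chr12:73286712-73286961, minus strand), Cdk5rap1, a tRNA-modifying enzyme (chr2:154372720-154372969, minus strand), and Wfs1, a protein of the endoplasmic reticulum and a marker of CA1 pyramidal neurons (chr5:36988983-36989232, minus strand), lost H3K4me1 peaks downstream of the start in the cKO. Syt1, the calcium sensor of transmitter release (chr10:109010976-109011225, minus strand), Lmo4, a LIM-domain cofactor of transcription (chr3:144205256-144205505, minus strand), and Neurod6, a transcription factor of pyramidal neurons (chr6:55681264-55681513, minus strand), gained them. The genes were chosen after their values were seen.
Trmt5: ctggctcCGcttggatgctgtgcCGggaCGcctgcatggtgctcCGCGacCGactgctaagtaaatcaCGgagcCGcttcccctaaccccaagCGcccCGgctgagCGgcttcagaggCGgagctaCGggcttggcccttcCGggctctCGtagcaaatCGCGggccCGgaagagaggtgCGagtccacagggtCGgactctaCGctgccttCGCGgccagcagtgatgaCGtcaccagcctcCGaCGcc
Cdk5rap1: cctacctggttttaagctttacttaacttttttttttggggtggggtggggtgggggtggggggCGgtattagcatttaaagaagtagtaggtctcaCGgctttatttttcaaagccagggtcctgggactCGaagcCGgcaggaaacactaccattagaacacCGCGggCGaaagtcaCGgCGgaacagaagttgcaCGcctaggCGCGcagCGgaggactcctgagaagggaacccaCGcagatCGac
Wfs1: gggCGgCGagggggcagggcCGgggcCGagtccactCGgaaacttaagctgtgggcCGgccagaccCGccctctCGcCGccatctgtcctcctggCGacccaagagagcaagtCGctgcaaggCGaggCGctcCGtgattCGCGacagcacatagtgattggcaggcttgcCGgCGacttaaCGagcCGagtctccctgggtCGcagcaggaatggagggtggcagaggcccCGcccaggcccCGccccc
Syt1: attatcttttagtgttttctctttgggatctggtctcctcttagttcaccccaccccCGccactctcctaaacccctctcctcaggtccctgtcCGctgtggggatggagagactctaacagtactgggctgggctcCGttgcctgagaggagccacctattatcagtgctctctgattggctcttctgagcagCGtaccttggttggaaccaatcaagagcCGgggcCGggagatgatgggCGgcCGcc
Lmo4: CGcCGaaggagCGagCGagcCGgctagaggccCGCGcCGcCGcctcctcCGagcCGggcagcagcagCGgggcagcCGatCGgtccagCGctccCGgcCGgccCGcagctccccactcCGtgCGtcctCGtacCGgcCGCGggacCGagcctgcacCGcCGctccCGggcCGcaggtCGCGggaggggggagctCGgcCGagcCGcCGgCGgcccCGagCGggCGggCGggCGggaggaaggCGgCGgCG
Neurod6: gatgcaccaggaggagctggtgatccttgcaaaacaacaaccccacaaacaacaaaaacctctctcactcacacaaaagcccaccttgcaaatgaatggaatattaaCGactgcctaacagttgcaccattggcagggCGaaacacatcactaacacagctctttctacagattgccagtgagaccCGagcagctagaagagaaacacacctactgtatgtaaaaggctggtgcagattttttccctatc
The window held 26 CG dinucleotides at Trmt5, 15 at Cdk5rap1 and 23 at Wfs1. It held 8 at Syt1, 44 at Lmo4 and 3 at Neurod6, so the genes that gained H3K4me1 include both CpG-poor and very CpG-rich starts. CG reads the same on both strands, and 38.9% of all 25748 gene starts held at least 10 in the same window, with a median of 6.

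Each H3K4me1 library had 29.6 to 35.5 M tags, and each genotype had 1 input library (28.8 M tags for the controls, 31.3 M for the cKO), so that effects of the input cannot be told apart from those of the genotype. Replicate 1 of each genotype was sequenced in lane 2 and replicates 2 to 4 in lane 3. Setd1b RNA, the check of the labels, was 65.3, 50.2 and 48.0 CPM (counts scaled to library size) in the control neurons and 60.4, 62.5 and 70.3 CPM in the cKO, so the total count of this gene did not separate the genotypes (log2 0.25, adjusted p = 0.361, edgeR quasi-likelihood test); whether a deleted exon is still counted cannot be told from gene totals. Peaks covered a mean of 41.2% of the Setd1b gene in the controls (46.2, 42.0, 38.6 and 38.1%) and of 32.5% in the cKO (33.9, 32.99, 32.7 and 30.3%), without overlap. This fall (log2 -0.34, adjusted p = 0.0454, limma) is to be read against a background of 10.1% of 16313 gene spans called in either direction, 8.46% lower and 1.6% higher.

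At wide H3K4me3 domains, the 4 cKO libraries had more H3K4me1 in the middle of the domain and less beside it. These domains were chosen by width and not by distance to a gene start. The 9189 control H3K4me3 regions of 2.0 kb or more were used, and the share of bases under an H3K4me1 peak was measured within 250 bp of their centre and in the 1 kb outside each edge. At the centre the share was 55.6, 50.1, 51.1 and 53.1% in Control 1 to 4 and 69.2, 69.98, 57.6 and 67.2% in cKO 1 to 4. In the flanks it was 57.5, 54.5, 52.3 and 53.1% in the controls and 40.4, 41.2, 31.8 and 36.4% in the cKO. Thus centre and flanks were covered about equally in the controls, and in every cKO library the centre was covered more than the flanks. The means changed from 52.5 ± 2.41% to 66.0 ± 5.71% at the centre (SD, n = 4, log2 0.33) and from 54.3 ± 2.27% to 37.5 ± 4.34% in the flanks (log2 -0.54). In both cases the 2-sided exact permutation test gave p = 0.0286, the smallest that 4 against 4 libraries allow (adjusted p = 0.0476 over 10 such measures). All 10 were chosen after the data had been seen, and some are ratios of others, so they are not independent. The adjusted p depends on how many of the 10 reached that smallest p, and adds no support to it.

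By width, the flanks separated the genotypes in domains of 2000 bp or more and not below. In the 1956 regions of 4000 bp or more, H3K4me1 at the centre rose from 58.9 ± 2.95% to 80.9 ± 2.61% and in the flanks fell from 63.8 ± 1.95% to 49.3 ± 4.02% (SD, n = 4, exact permutation p = 0.0286 each, adjusted p = 0.0952 over the 10 values by width). In the 7233 regions of 2000 bp or more but under 4000 bp the flanks fell from 51.8 ± 2.37% to 34.2 ± 4.43% without overlap. The centre of those regions was at 47.7 to 53.5% in the controls and 52.4 to 66.5% in the cKO, which overlap because of cKO 3. In the regions under 2000 bp the genotypes overlapped at the centre and in the flanks alike, for instance 88.4 to 91.2% against 88.2 to 91.8% at the centre of regions of at least 500 bp but under 1000 bp.

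**Figure D1:**
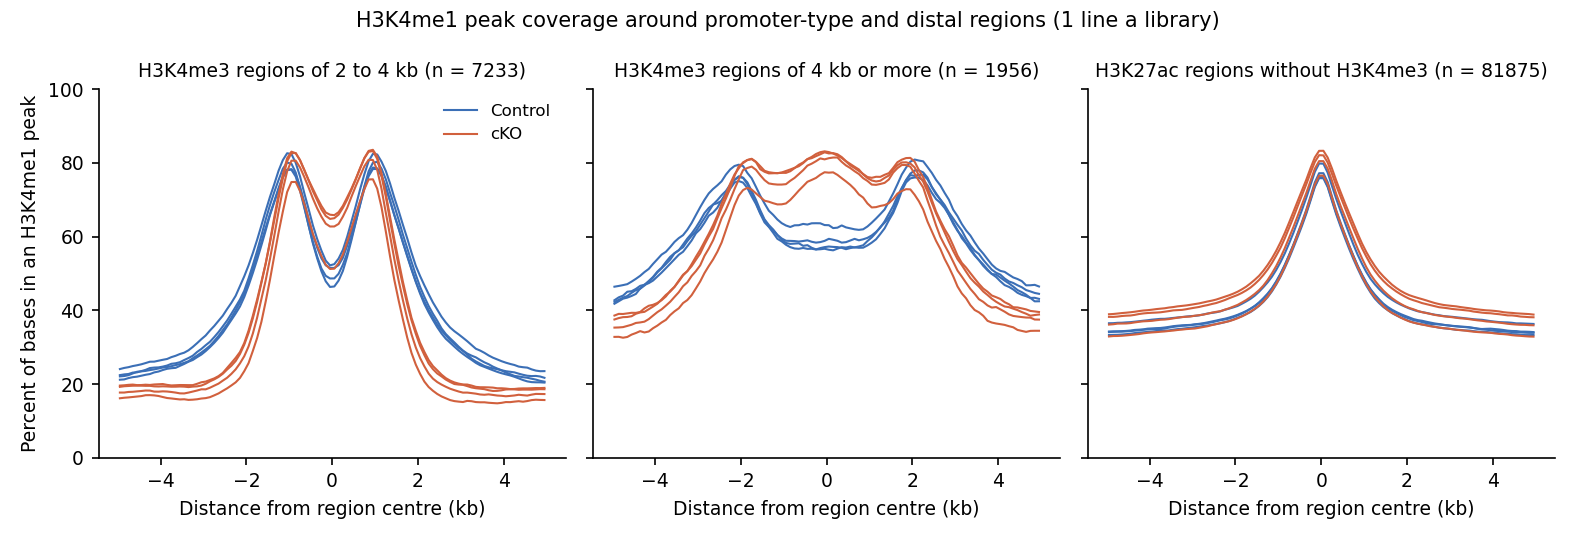
Percent of bases in an H3K4me1 peak (y axis) by distance in kb from the centre of H3K4me3 regions of 2 to 4 kb and of 4 kb or more, and of H3K27ac regions without H3K4me3 (x axis), 1 line for each of the 4 control and 4 cKO libraries. In the widest H3K4me3 regions the 4 cKO lines lie above the control lines at the centre (mean 80.9% against 58.9%) and below them outside the edges, while at the 81875 distal regions the lines of the genotypes interleave.

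Distal regions, which stand for candidate enhancers, did not show this pattern. At the 81875 control H3K27ac regions without H3K4me3, the share under an H3K4me1 peak was 73.8 to 77.8% at the centre in the controls and 74.6 to 81.7% in the cKO (log2 0.07, exact permutation p = 0.0857), and 49.7 to 53.8% against 50.2 to 59.6% in the flanks (log2 0.12, exact permutation p = 0.114). The libraries of both genotypes overlapped in both parts. The ratio of the share 1.5 to 3.5 kb downstream of H3K4me3-marked gene starts to that in the distal flanks sets the promoters against the enhancers within a library. It was 0.910, 0.914, 0.902 and 0.895 in the controls and 0.590, 0.588, 0.571 and 0.577 in the cKO. The genotypes were far apart on this measure compared with the spread within either (SD 0.00839 and 0.00888, log2 -0.64, exact permutation p = 0.0286, adjusted p = 0.0476 over the 10 measures).

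**Figure D2:**
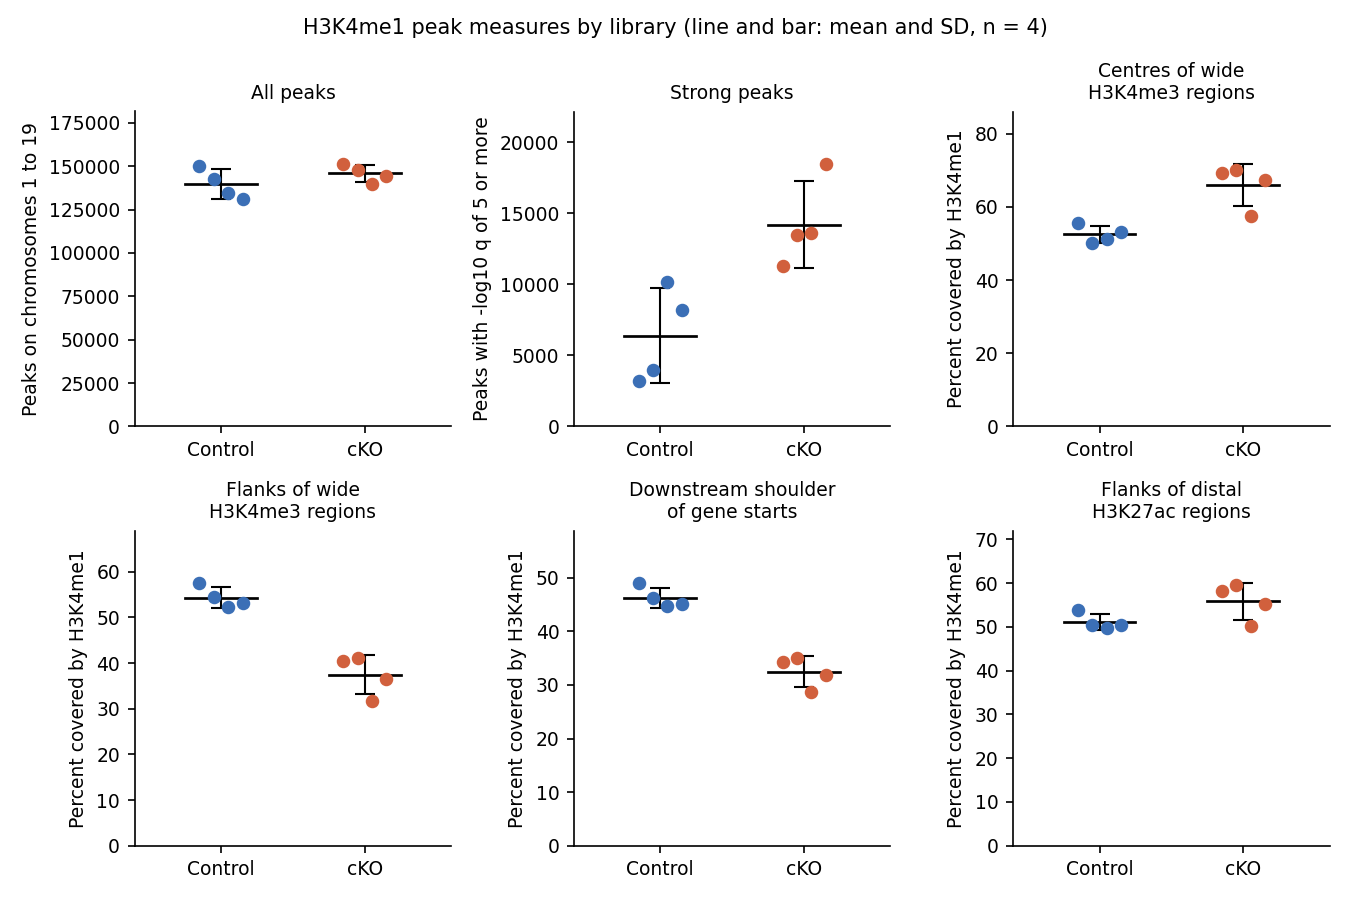
H3K4me1 measures with 1 point for each library and the mean and SD of 4 (all y axes start at 0): the number of all peaks and of strong peaks with a -log10 q of 5 or more, and the percent of bases covered at the centres and flanks of wide H3K4me3 regions, in the downstream shoulder of marked gene starts and in the flanks of distal H3K27ac regions. The controls lie below the cKO libraries at wide-region centres and above them in wide-region flanks and the downstream shoulder, whereas peak number and distal flanks overlap.

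The position of H3K4me1 was then measured from the gene start. A start was called marked when a control H3K4me3 region lay within 250 bp of it (12675 of 25748 starts), and its reach is how far that region extends into the gene. In the controls, H3K4me1 was most covered close to the end of the H3K4me3 domain, and in the cKO this maximum lay nearer to the start. At the 720 starts with a reach of 3.5 to 6 kb, the most covered 100 bp bin was centred 3.55, 3.55, 3.55 and 3.45 kb downstream in the controls and 1.95, 1.85, 1.85 and 1.85 kb in the cKO. At the 144 starts with a reach of 6 kb or more it was at 6.85, 6.55, 6.35 and 6.25 kb in the controls and 2.15, 2.35, 2.25 and 2.75 kb in the cKO. The mean position thus dropped from 3.525 to 1.875 kb and from 6.5 to 2.375 kb, with no overlap.

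At shorter domains the distance was smaller: 1.95 kb in each control against 1.45 to 1.55 kb in the cKO for a reach of 2 to 3.5 kb (2474 starts), and 1.05 kb in each control against 0.95 kb in each cKO library for 1 to 2 kb (5804 starts), which is a single bin. For these 4 classes the exact permutation test gave p = 0.0286 (adjusted p = 0.0357 over 5 classes), and at the 3533 starts with a reach under 1 kb the maximum was within 0.25 kb of the start in every library. The height of the maximum was 89.6 to 93.2% in the controls and 92.1 to 95.5% in the cKO for a reach of 3.5 to 6 kb, which overlap, and 85.6 to 90.9% against 94.4 to 97.2% for 6 kb or more, which do not (exact permutation p = 0.0286, adjusted p = 0.143 over 5 classes). The H3K4me3 peaks themselves were shorter in the cKO, as 4047 of 43584 H3K4me3 regions fell in covered length and 632 rose (9.29% and 1.45% of those tested, limma with Benjamini-Hochberg adjustment).

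**Figure D3:**
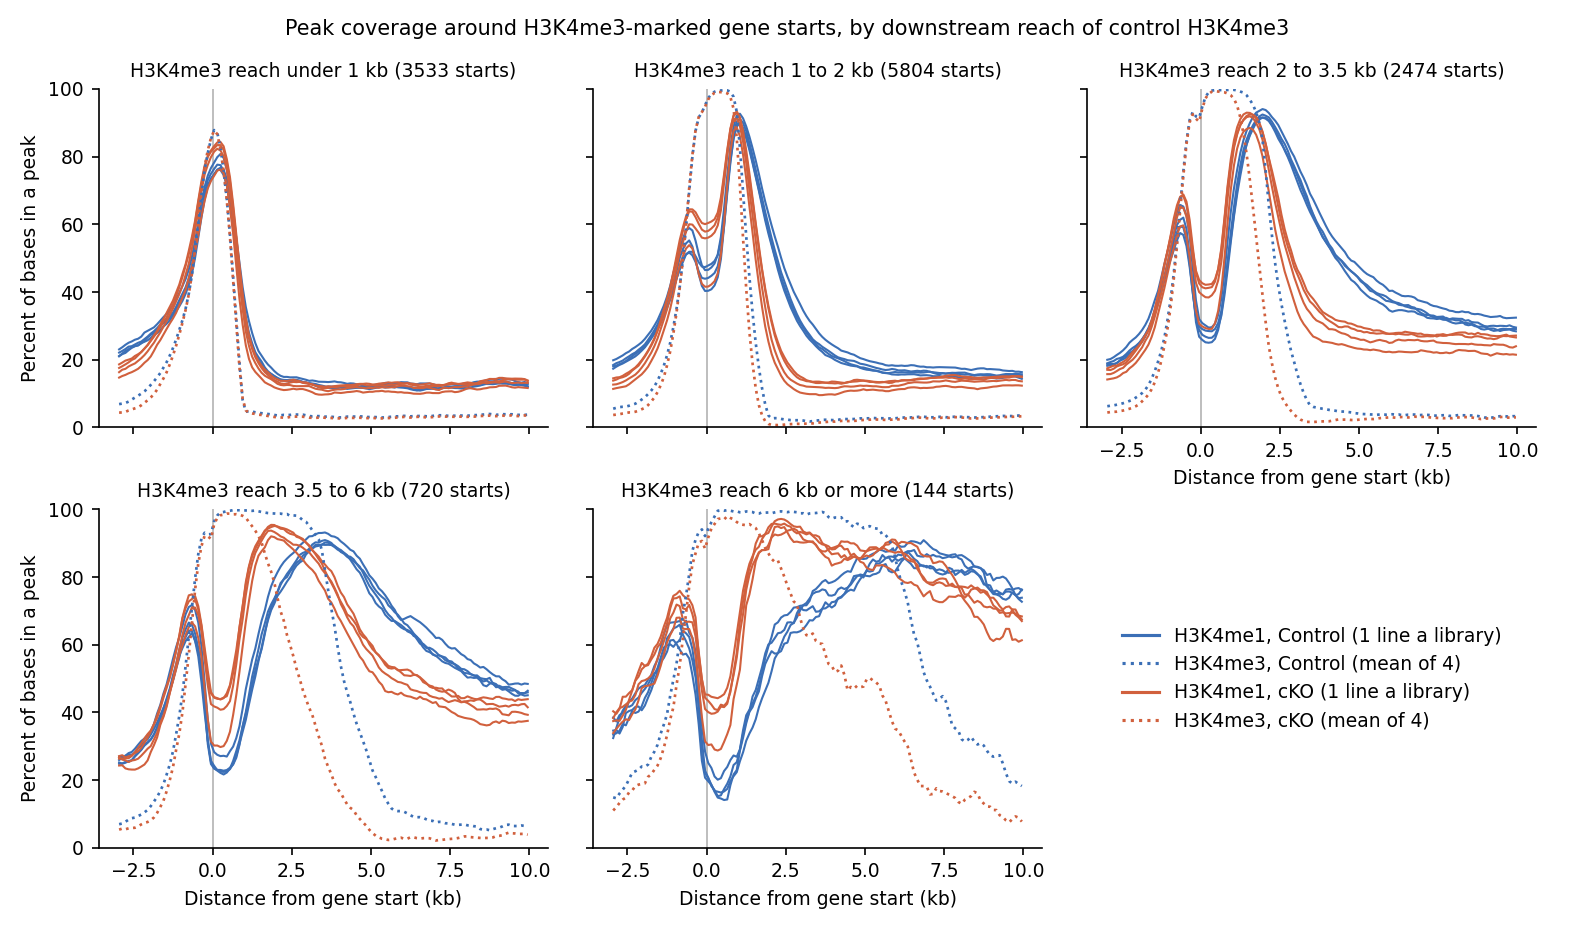
Percent of bases in a peak (y axis) by distance in kb from H3K4me3-marked gene starts (x axis), in 5 classes of how far control H3K4me3 reaches downstream; solid lines are single H3K4me1 libraries and dotted lines the mean H3K4me3 of 4 libraries. In the controls the H3K4me1 maximum lies near the falling edge of H3K4me3. In the cKO it lies closer to the start, 1.875 against 3.525 kb for a reach of 3.5 to 6 kb.

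Within a fixed window, H3K4me1 was lower or higher in the cKO depending on the reach. In the downstream shoulder, the window of 2001 bp from 1.5 to 3.5 kb into the gene, starts with a reach of 1 to 2 kb went from 49.0, 45.1, 43.0 and 43.9% covered in the controls to 25.3, 25.96, 18.8 and 22.1% in the cKO (log2 -0.99). Starts with a reach of 2 to 3.5 kb went from a mean of 83.0 ± 1.68% to 62.3 ± 4.60% (log2 -0.42). In contrast, starts with a reach of 3.5 to 6 kb went from 81.3 ± 2.53% to 89.9 ± 2.31% (log2 0.15), and those of 6 kb or more from 65.6, 63.7, 62.5 and 57.6% to 93.6, 93.9, 90.7 and 91.1% (log2 0.57). Each of these 4 differences had an exact permutation p of 0.0286 (adjusted p = 0.0357 over 5 classes), with no overlap between the genotypes; under 1 kb the share was 14.5 ± 0.677% against 12.9 ± 1.17% (exact permutation p = 0.0571).

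H3K4me3 in the same window is given as a description, since the control H3K4me3 libraries defined the classes. It covered a mean of 4.86% in the controls and 1.93% in the cKO at a reach of 1 to 2 kb, 46.9% and 21.1% at 2 to 3.5 kb, 96.8% and 59.2% at 3.5 to 6 kb, and 99.1% and 77.6% at 6 kb or more. The window was therefore mostly outside the H3K4me3 domain where H3K4me1 fell most, and mostly inside it where H3K4me1 rose. Classes made from the cKO H3K4me3 libraries or from all 8 gave the same directions of the H3K4me1 shoulder share in all 5 classes. With the reach taken from the cKO libraries, the H3K4me1 maximum lay at a mean of 4.35 kb in the controls and 2.65 kb in the cKO for 3.5 to 6 kb. For 6 kb or more it lay at 6.65 and 2.275 kb. In both classes the cKO maximum thus lay short of the reach of cKO H3K4me3. In classes from the cKO libraries H3K4me3 in the window had means of 12.96% and 3.74% at 1 to 2 kb, 67.8% and 41.2% at 2 to 3.5 kb, 99.3% and 93.3% at 3.5 to 6 kb, and 99.4% and 98.4% at the 18 starts of 6 kb or more, where the libraries overlapped.

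The direction of the shoulder loss depends on counting all peaks. The cKO libraries had more strong peaks, with 3210, 3966, 10194 and 8168 peaks of -log10 q at least 5 in Control 1 to 4 and 11269, 13483, 13604 and 18478 in cKO 1 to 4, although all peaks together were alike in number (130844 to 149974 against 139631 to 151318). This difference in strong peaks did not overlap but did not pass after adjustment (log2 1.29, exact permutation p = 0.0286, adjusted p = 0.229 over 12 measures). With all peaks, the share of H3K4me3 regions, of their centres, of distal H3K27ac regions and of shortened H3K4me3 regions covered by H3K4me1 had log2 values of 0.08, 0.09, 0.06 and 0.12, and none passed (exact permutation test, adjusted p of 0.229 to 0.274). Among strong peaks alone, the shoulder share of marked starts was higher in the cKO (log2 0.83, exact permutation p = 0.0857), and so was that of the wide-region flanks (log2 0.82, exact permutation p = 0.114). The inward position held for strong peaks at a reach of 3.5 to 6 kb, at a mean of 3.375 kb in the controls and 2.1 kb in the cKO (exact permutation p = 0.0286). It was not seen in every control at 6 kb or more, where the strong peaks of Control 1 and Control 2 had their maximum at 2.35 and 2.55 kb and those of Control 3 and Control 4 at 5.95 and 6.15 kb. The ratio of the shoulder to the distal flanks stayed lower in the cKO among strong peaks (log2 -1.13, exact permutation p = 0.0286).

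Gene by gene, 1728 of 12634 gene starts tested lost H3K4me1 in the downstream shoulder and 215 gained it (limma on log2 covered length plus 100 bp, adjusted p under 0.05). This is a background of 15.4% of the starts tested, 13.7% lower and 1.7% higher, and the genotypes did not overlap at 23.7% of them. By reach, 1150 starts fell and 7 rose among 4833 tested at 1 to 2 kb, 459 fell and 14 rose among 2456 at 2 to 3.5 kb, 20 fell and 72 rose among 717 at 3.5 to 6 kb, and 2 fell and 42 rose among 143 at 6 kb or more. Within 250 bp of the start the calls went the other way, 12 lower and 93 higher of 11554 (0.909% called; the genotypes did not overlap at 3.12%). Of the 964 shoulder-lower starts that could also be tested there, 539 had a positive value within 250 bp, 166 a negative one and 259 a value of 0, of which 219 were covered throughout in all 8 libraries. A positive value was thus found at 55.9% of the 964, against 48.8% of all 7415 starts tested in both windows. Only 4 of the 964 were called higher within 250 bp, and 79 of the 7415. Over all marked starts the share covered within 250 bp was 46.7 to 51.9% in the controls and 48.2 to 62.5% in the cKO, which overlap because of cKO 3 (log2 0.22, exact permutation p = 0.114, adjusted p = 0.127 over the 10 measures).

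The starts that fell and those that rose had unlike H3K4me3. Of the 1728 that fell 1696 were marked and so have a reach, with a median of 1.64 kb. Of the 215 that rose 153 were marked, with a median reach of 4.84 kb, and the 9294 marked starts tested had a median of 1.67 kb. Control H3K4me3 filled over 50% of the window at 8.8% of the 1728 and 64.2% of the 215, against 17.4% of all 12634 starts tested. Among marked starts, the median number of CG dinucleotides in the 250 bases upstream was 18 at the 1696 that fell and 15 at the 153 that rose, and 83.5% and 65.4% held at least 10. The 62 unmarked starts that rose had a median of 2. Marked starts that were tested and not called had a median of 17, and 77.3% held at least 10.

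At 16 starts the change was complete, from the whole window in all 4 libraries of a genotype to none in the other 4. Of these, 6 were covered in every control and empty in every cKO library: Trmt5, Cdk5rap1, Ccdc34 (a coiled-coil protein), Eef1aknmt (a methyltransferase of translation elongation factor eEF1A), Mcm3ap (a protein of nuclear mRNA export) and Tsr1 (a ribosome maturation factor). Their control H3K4me3 reached 0.871 to 1.556 kb, and covered at most 43.75 bp of the window. The other 10 were empty in every control and covered throughout in every cKO library: Syt1, Lmo4, Kcnj3 (a G-protein-gated potassium channel), Nrp1 (a semaphorin receptor), Epha6 (an ephrin receptor), Arpp21 (a neuronal phosphoprotein), Gpr22 (an orphan receptor), Cpeb4 (a regulator of mRNA translation), Malat1 (a nuclear long noncoding RNA) and 9430053O09Rik. At these 10 the control H3K4me3 reached 5.681 to 10.328 kb and covered all 2001 bp of the window. In the cKO, H3K4me3 still covered all 2001 bp at Syt1, Lmo4, Cpeb4 and Malat1. At the others its cKO mean was 1006.25 bp (Arpp21) to 1964 bp (9430053O09Rik). In such windows the values cannot vary, the error of the fit is close to nothing, and the adjusted p carries no information, so the sizes alone are given. Where only 1 genotype is fixed at 0 or 2001 bp, the adjusted p rests on the spread of the other genotype alone.

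Among the genes of synaptic plasticity, 6 rose and 3 fell of 14 tested in the shoulder, where 1.7% of all starts tested rose and 13.7% fell. The median log2 was 0.78, against -0.22 over all starts tested. Syt1 had no H3K4me1 peak in the window in any control and 2001 bp in each cKO library. Gria2, the AMPA receptor subunit that sets calcium permeability (start at chr3:80802835), had 0 bp in each control and 2001, 2001, 1861 and 1857 bp in the cKO. Both belong to the genes whose control H3K4me3 fills the window (reach 6.55 and 10.35 kb). Ntrk2, the receptor of the growth factor BDNF, had 0 bp in each control and 1799, 1478, 1355 and 1435 bp in the cKO. Nrgn, which binds calmodulin at synapses, had 892, 1218, 374 and 622 bp in the controls and 2001 bp in each cKO library (log2 1.36, adjusted p = 0.0282, limma). Homer1, a scaffold of glutamate receptors, rose from a mean of 842 bp to 2001 bp (log2 1.26, adjusted p = 0.0338, limma), and Camk2b, a subunit of calcium/calmodulin-dependent kinase II, from 1822 to 2001 bp (log2 0.13, adjusted p = 0.0377, limma).

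The plasticity genes that fell, 3 of 14 against 13.7% of all starts tested, were Npas4, Fos and Creb1, which encode transcription factors. Npas4 had 2001 bp in each control and 794, 1098, 885 and 836 bp in the cKO, and H3K4me3 in its window went from a mean of 1435 to 39.25 bp. Fos had 1362, 950, 1110 and 1109 bp in the controls and 687, 563, 324 and 341 bp in the cKO (log2 -1.13, adjusted p = 0.0207, limma). Creb1, which encodes the cAMP response factor, had 1811, 1785, 1597 and 1798 bp in the controls and 347, 386, 188 and 729 bp in the cKO (log2 -1.95, adjusted p = 0.0069, limma). None of the cKO values of these 3 genes reached the lowest control. Egr1, another immediate early gene, has no start in the table used, and over its whole span the share covered fell from 68.6% to 45.1% (log2 -0.56, adjusted p = 0.0309, limma).

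**Figure D4:**
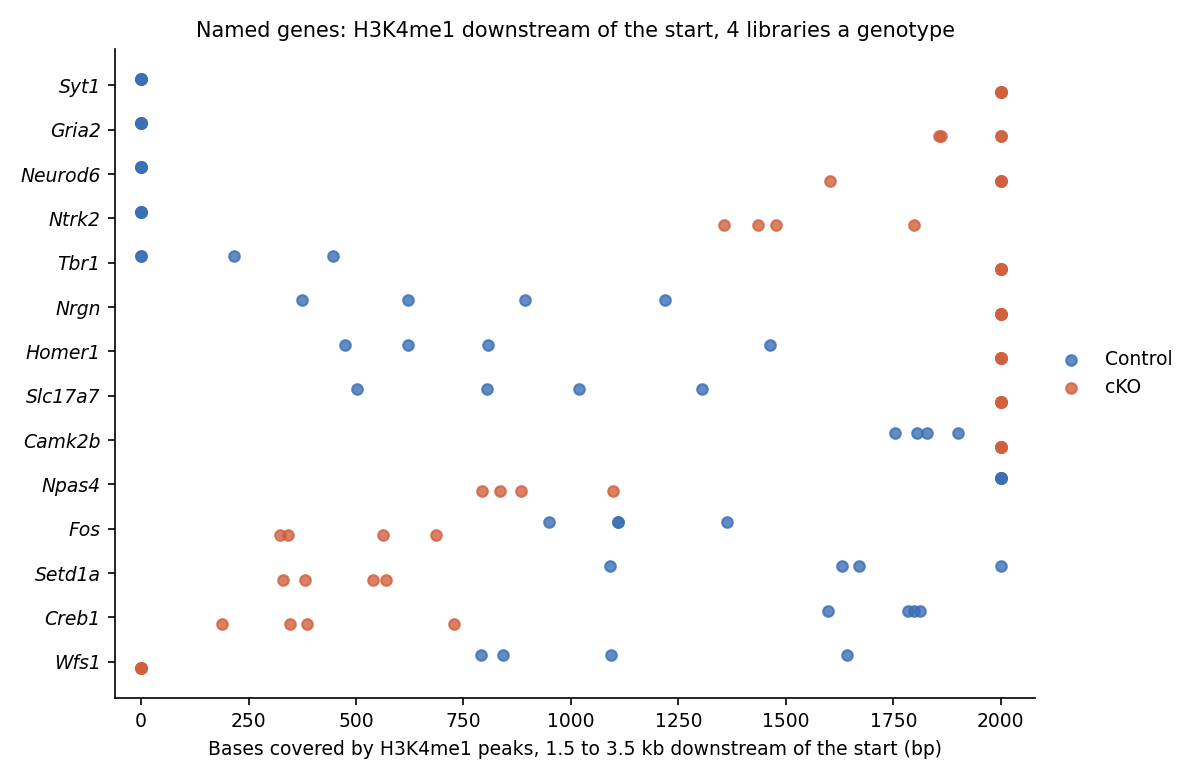
H3K4me1-covered bases 1.5 to 3.5 kb downstream of the start (x axis, bp, at most 2001) for 14 genes (y axis), with 1 point for each of the 4 control and 4 cKO libraries. From Syt1 to Camk2b the cKO libraries lie above the controls, most of them at or near 2001 bp and those of Ntrk2 further below it. From Npas4 to Wfs1 the cKO libraries lie below every control.

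Markers of pyramidal neurons moved in both directions. In the shoulder, 3 of 8 neuron markers rose, 1 fell and the median log2 was 1.52. Of all starts tested there, 1.7% rose and 13.7% fell, with a median log2 of -0.22. Neurod6 had 0 bp in each control and 2001 bp in cKO 1, 2 and 4, with a mean of 1901.5 bp over all 4, and over the whole gene the share covered went from 0% in every control to a mean of 86.3%. Tbr1, a transcription factor of glutamatergic neurons, had 0, 217, 447 and 0 bp in the controls and 2001 bp in each cKO library (log2 3.36, adjusted p = 0.0113, limma). Slc17a7, the vesicular glutamate transporter VGLUT1, had 805, 502, 1018 and 1305 bp in the controls and 2001 bp in each cKO library (log2 1.13, adjusted p = 0.0275, limma). Wfs1 went the other way, from 841, 1094, 1642 and 790 bp to 0 bp in all 4 cKO libraries (log2 -3.52, adjusted p = 9.19e-05, limma), and over its whole span from 14.3% to 5.70%. For Neurod2, a relative of Neurod6, the shoulder did not pass (0 to 860 bp against 1890 to 1988 bp, adjusted p = 0.0676, limma), and over the span the share rose from 23.6% to 63.0% (adjusted p = 0.0335, limma).

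Of the genes that write H3K4 methylation, 1 of 5 tested in the shoulder was called, near the 15.4% of all starts tested. Setd1a, the closest relative of Setd1b, had 1631, 1670, 1090 and 2001 bp in the controls and 539, 570, 381 and 331 bp in the cKO (log2 -1.61, adjusted p = 0.00445, limma). Its RNA was 52.4 CPM in the controls and 50.4 CPM in the cKO (log2 -0.05, adjusted p = 0.843, edgeR quasi-likelihood test). Kmt2d, a main writer of H3K4me1, was covered throughout the window in all 8 libraries, and over its whole span the share fell from 38.5% to 28.4% (log2 -0.43, adjusted p = 0.0253, limma). Kmt2a and Kmt2c overlapped between genotypes in the shoulder. Of the 3 H3K4 demethylases tested, Kdm1a, Kdm1b and Kdm5b, none passed there, with log2 values of -0.48, -1.29 and -0.44 and overlapping libraries.

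In the wider window of 2.5 kb on each side of the start, fewer starts were called, 187 lower and 213 higher of 17921. That is 2.23% called, 1.04% lower and 1.19% higher, and the genotypes did not overlap at 11.4%. Gria2, Grin1, Syt1, Nrgn and Cacna1c rose among 15 plasticity genes, and Slc17a7 and Tbr1 rose and Wfs1 fell among 8 neuron markers. Grin1, the obligatory NMDA receptor subunit, had 2337, 1689, 1666 and 2167 bp in the controls and 4201, 4118, 3008 and 4036 bp in the cKO (log2 0.94, adjusted p = 0.0316, limma). Cacna1c, an L-type calcium channel, had 1289, 1232, 1170 and 1750 bp in the controls and 2190, 2328, 2470 and 2332 bp in the cKO (log2 0.75, adjusted p = 0.0323, limma). Both kept clear of the controls in every cKO library. None of the 9 tested genes from the list of RNA changes, 6 methyltransferases, 3 demethylases or the markers of other cell types passed in this window.

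The 5 starts with the largest gain in that window were 3110039M20Rik, Bcl11a, Gm46210, Stxbp5 and Add3. The noncoding transcript 3110039M20Rik (start at chr12:49389652) had no peak in any control and all 5001 bp in each cKO library. Bcl11a, a zinc-finger transcription factor of neurons (start at chr11:24080695), had 0, 637, 0 and 44 bp in the controls and 3241, 3651, 3122 and 3188 bp in the cKO (log2 4.23, adjusted p = 0.0213, limma). Stxbp5, a syntaxin-binding regulator of vesicle release, and Gm46210 start close together on opposite strands and share their peaks, with 0 to 177 bp in the controls and 1448 to 1842 bp in the cKO for Stxbp5. Add3, a protein of the membrane skeleton, had 0 to 285 bp and 1914 to 2826 bp. RNA of Bcl11a, Stxbp5 and Add3 did not pass, with log2 values of 0.13, 0.09 and 0.05 (edgeR quasi-likelihood test, adjusted p of 0.429, 0.707 and 0.805). The 5 starts with the largest loss were Gm39210, Gm51478, Gm4952, Gm38850 and 1700020D05Rik, none of them H3K4me3-marked, with 266 to 2791 bp in the controls and 0 to 155 bp in the cKO.

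Peaks of all 8 libraries were also merged into 135722 regions, and 971 fell and 1043 rose in covered length (1.48% called; 0.715% lower, 0.768% higher, limma). Among strong peaks alone the balance was lost, with 7 shorter and 691 longer. Shorter and longer regions lay in different places. Of the 971 shorter regions, 52.4% overlapped H3K4me3 and 52.6% lay within 5 kb of a gene start, with a median loss of 1636 bp. Of the 1043 longer regions, 4.60% overlapped H3K4me3 and 84.8% had neither H3K4me3 nor H3K27ac, with a median gain of 647 bp. For comparison, 22.8% of all regions tested overlapped H3K4me3 and 51.6% had neither mark. Of the longer regions, 769 had a peak in all 4 cKO libraries and no control, and 374 of the shorter had the reverse. Among called regions with a peak in all 8 libraries, 499 of 553 shorter ones overlapped H3K4me3. Of the 152 longer ones there, 23 overlapped H3K4me3, 69 had H3K27ac without H3K4me3 and 60 had neither. Of all regions with a peak in all 8 libraries, 33.4% overlapped H3K4me3 and 31.3% had neither. Tested alone, the 85881 regions that all 8 libraries shared gave 788 shorter and 317 longer (1.29% called; 0.918% lower and 0.369% higher).

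The 4 largest losses among such regions lay in or at genes of general function. In the gene of the acetyltransferase Ep300, 13.877 kb from its start, the region at chr15:81600091-81608856 had 5871, 5656, 6942 and 6900 bp covered in the controls and 1024, 529, 296 and 736 bp in the cKO (log2 -3.21, adjusted p = 0.00235, limma). The region at chr9:7826820-7836318 at the start of Birc2, an inhibitor of apoptosis, fell from a mean of 7558 to 1131 bp, the region at chr11:43682956-43689579 in Pwwp2a, a chromatin reader, from 5984 to 806 bp, and the region at chr5:149194398-149199645 in Uspl1, a SUMO protease, from 4821 to 647 bp. In none of the 4 did a cKO library reach the lowest control.

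The 4 largest gains lay away from annotated gene starts, at 30.9 to 394.6 kb. The region at chr10:97745696-97749950 had 832, 390, 616 and 283 bp in the controls and 3934, 4255, 2599 and 2879 bp in the cKO (log2 2.53, adjusted p = 0.00775, limma), and carried H3K27ac. The others, at chr17:64921808-64925037, chr12:68253125-68256236 and chr13:60282295-60285153, carried neither H3K27ac nor H3K4me3 and overlapped no gene. They rose from means of 339, 397 and 479 bp to 2046, 2058 and 2232 bp.

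A peak in all 4 libraries of one genotype and none of the other was found at 785 regions for the cKO and 378 for the controls (0.578% and 0.279% of regions). This excess depends on how peaks are counted: it was 483 against 439 with the same number of peaks taken from each library, and 661 against 4 among strong peaks. Of the 785 and 378 regions, 93.4% and 90.7% had neither H3K4me3 nor H3K27ac, and 8.0% and 20.1% lay within 5 kb of a gene start. The longest control regions without any cKO peak included some inside genes of chromatin and synaptic proteins. One at chr13:55244722-55252350 in Nsd1, a histone H3 lysine 36 methyltransferase, had 7213, 5370, 3228 and 4671 bp in the controls. Those at chr7:87602575-87607174 in Grm5, a metabotropic glutamate receptor, and at chr7:127541377-127547172 in Srcap, a chromatin remodeller, had means of 3562 and 3400 bp. Of the longest cKO regions without a control peak, that at chr16:60600637-60604500 lay 1.031 kb from the start of Epha6, under control H3K4me3, with 3464, 3564, 3851 and 3485 bp. One at chr9:92555077-92557573 in Plod2, a collagen-modifying enzyme, had 2497, 2065, 1071 and 1481 bp. Both of these overlapped H3K4me3, as only 2.80% of the 785 did, so they are not typical of the set.

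The 2 H3K4me3 regions with the greatest loss kept their H3K4me1. In Khdrbs3, an RNA-binding protein of neurons, H3K4me3 at chr15:68927304-68944789 shrank from 17079 to 17282 bp in the controls to 6642 to 7640 bp in the cKO, while the H3K4me1 region at chr15:68929187-68969520 covered 35770, 35875, 34893 and 35084 bp and 39125, 40045, 39522 and 38808 bp. At Epha4, an ephrin receptor, H3K4me3 at chr1:77499161-77517528 went from 16601 to 17856 bp to 6477 to 7803 bp, and the H3K4me1 region at chr1:77483998-77513623 covered 25463 to 27092 bp in the controls and 27327 to 29626 bp in the cKO. The cKO libraries were the longer in both, without overlap, but the differences did not pass (log2 0.15 and 0.10, adjusted p = 0.565 and 0.724, limma), and their sign turned when each library was centred on its median (log2 -0.00068 and -0.05).

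Peak height gave few calls. The score, -log10 q as the authors deposited it, differed at 3 of these 85881 shared regions after centring each library on its median (0.00349% called; 0.00233% lower and 0.00116% higher, limma), and 9272 had an unadjusted p under 0.05. Fem1a, a ubiquitin ligase subunit, had scores of 6.24, 7.82, 8.75 and 8.12 in the controls and 3.38, 3.33, 3.34 and 3.76 in the cKO at chr17:56257288-56267146 (log2 -1.39 after centring, adjusted p = 0.0237, limma). The single region that scored higher, at chr18:60908056-60925787, overlaps Camk2a, a subunit of the main kinase of the postsynaptic density, and Arsi, with 4.51, 4.85, 6.59 and 5.34 in the controls and 15.1, 15.8, 13.1 and 16.1 in the cKO (log2 1.27, adjusted p = 0.0423, limma). Both regions overlap H3K4me3, and at neither did the genotypes overlap in score.

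Other marks were measured in the same windows. In the downstream shoulder of marked starts, H3K9ac went from 17.9 ± 1.35% to 12.5 ± 1.31% (SD, n = 4 and 3, log2 -0.52) and H3K27ac from 13.8 ± 1.27% to 10.9 ± 0.831% (n = 3 and 4, log2 -0.34), each with an exact permutation p of 0.0286 (adjusted p = 0.0519 over 20 values). In this family the H3K4me1 shoulder had the same exact permutation p and the same adjusted p of 0.0519, so the marks do not differ in this respect. H3K4me3, whose control libraries chose these starts, had 19.01 ± 0.594% and 10.1 ± 1.27% (SD, n = 4). At the centre of wide H3K4me3 regions, which had more H3K4me1 in the cKO, the log2 value was -0.08 for each of H3K4me3, H3K9ac and H3K27ac. Within 250 bp of marked starts H3K4me3 was at 92.4 ± 0.638% and 92.1 ± 1.68% (SD, n = 4).

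Neuron RNA had 539 of 19622 genes called, 393 lower and 146 higher (2.75% called, 2% lower and 0.744% higher, edgeR quasi-likelihood test with Benjamini-Hochberg adjustment, 3 libraries a genotype). In bulk RNA, fewer cells of a type and less RNA per cell cannot be told apart. Of 9020 genes tested for both, 18.1% fell and 1.55% rose in the H3K4me1 shoulder. Among the 192 with lower RNA, 20 fell (10.4%) and 11 rose (5.73%), and of the 57 with higher RNA none was called in the shoulder in either direction. All 31 genes called in both measures thus had lower RNA, whichever way H3K4me1 moved; no test of this overlap was made.

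Some of the 31 are known for their roles in neurons or glia. Serpina3n, a protease inhibitor, had 2001, 2001, 705 and 2001 bp in the controls and 0 bp in each cKO library, and its RNA fell from 42.9 to 11.9 CPM (log2 -1.84, adjusted p = 2.96e-05, edgeR quasi-likelihood test). Wfs1 RNA fell from 141 to 64.97 CPM (log2 -1.11), and that of Ache, the acetylcholinesterase, from 101 to 69.7 CPM (log2 -0.53), with log2 shoulder values of -3.52 and -3.32. Neurod6 RNA fell from 153 to 32.3 CPM (log2 -2.24, adjusted p = 2.96e-05, edgeR quasi-likelihood test), and in its shoulder H3K4me3 went from 2001 to a mean of 483.5 bp as H3K4me1 appeared. Gpr22 RNA fell from 180 to 68.5 CPM, Arpp21 RNA from 333 to 224 CPM and Nrp1 RNA from 129 to 82.4 CPM, and these 3 genes are among those whose shoulder went from empty to full. Nrgn RNA fell from 243 to 179 CPM (log2 -0.43). For others with a full gain the RNA did not pass: Syt1 was at 1504 and 1477 CPM, Kcnj3 at 185 and 193 CPM and Epha6 at 78.7 and 65.9 CPM.

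**Figure D5:**
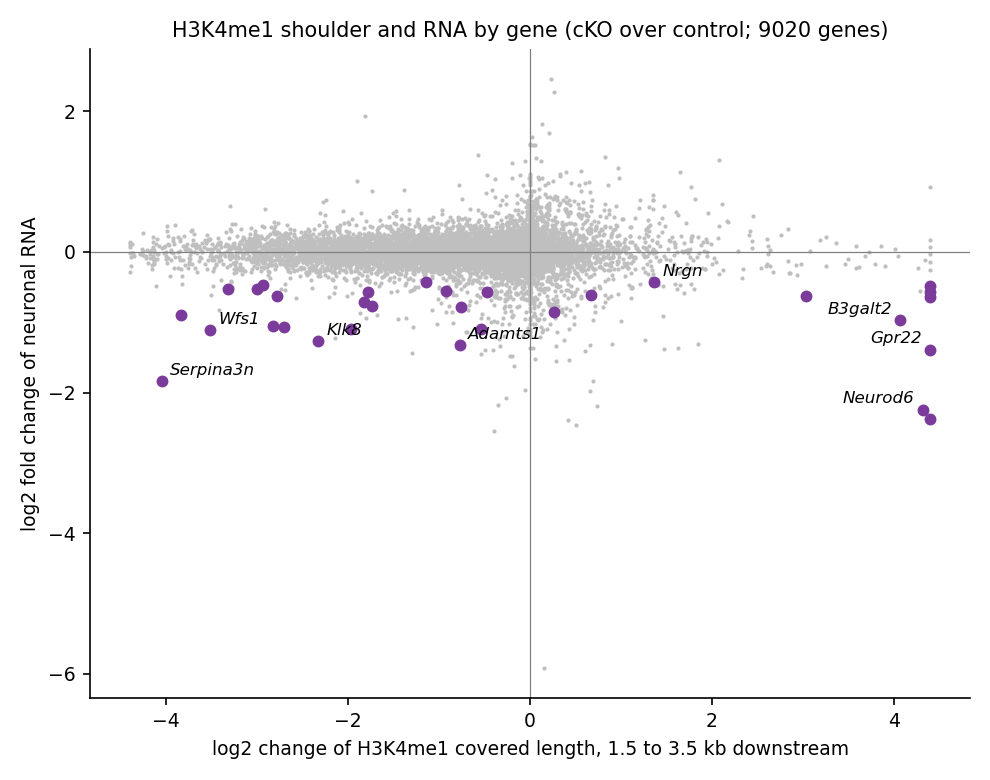
Log2 change, cKO over control, of H3K4me1 covered length 1.5 to 3.5 kb downstream of the start (x axis) and of neuron RNA (y axis) for 9020 genes in grey; the 31 genes called in both are in purple and some are named. All purple points lie below 0 on the RNA axis, 20 on the left and 11 on the right of the H3K4me1 axis.

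Genes with higher RNA levels held most of the shoulder gains. When the marked starts were put into 4 equal bins by control RNA, 0.777, 0.243, 1.118 and 4.28% rose from the lowest to the highest bin, and 12.6, 24.6, 23.1 and 18.4% fell. The bins had a median of 5.04, 24.7, 59.7 and 161 CPM. The RNA of Kctd4, a potassium-channel-tetramerisation-domain protein, fell from 57.0 to 9.64 CPM (log2 -2.56, adjusted p = 4.83e-05, edgeR quasi-likelihood test). H3K4me1 over the Kctd4 span rose from 38.9% to 57.6% (adjusted p = 0.0488, limma). Npr1, with RNA of 5.39 and 0.731 CPM, had H3K4me1 throughout the 501 bp around its start in all 8 libraries.

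Neuron markers were present in the RNA and in the H3K4me3 peaks. Slc17a7 RNA was at 1348 and 1284 CPM, and all 8 neuron markers with a listed start had H3K4me3 there. Of glial and vascular markers, the summed RNA of 5 microglia genes was 7.44 and 6.51 CPM, of 5 astrocyte genes 26.7 and 24.4 CPM, of 4 endothelial genes 1.15 and 0.948 CPM and of 6 oligodendrocyte genes 74.8 and 74.4 CPM, of which Mbp made 61.2 and 61.5 CPM. No listed start of an oligodendrocyte or microglia marker had control H3K4me3. None of their starts changed in H3K4me1, while over its span the myelin gene Mog rose from 16.4% to 24.95% (log2 0.58, adjusted p = 0.00736, limma) with RNA of 3.42 and 3.64 CPM.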

How the data were processed

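Peaks were called with MACS2 by the authors, per the file headers (version 2.1.0.20140616 for H3K4me1, H3K27ac and H3K9ac, 2.1.1.20160309 for H3K4me3), at a q cutoff of 0.1, with broad peaks for H3K4me1, against 1 input a genotype. The build is mm10, per the submitters' processing notes. Each deposited peak has a pileup (coverage signal), -log10 p, fold enrichment (a ratio) and -log10 q. The deposited RNA files hold raw counts per gene. Their labels name neurons, while the extraction text speaks of whole tissue for RNA.

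Peaks of the 8 H3K4me1 libraries were merged into regions. Bases under a peak, per region, gene window and gene span with a peak in at least 3 libraries, were tested as log2(bp + 100) with limma 3.58.1 (R 4.3.3), and scores as log2 of -log10 q centred on library medians. Control H3K4me3 regions needed a peak in 3 of 4 libraries and H3K27ac regions in 2. RNA was tested with edgeR 4.0.16 (quasi-likelihood, TMM) and, as an alternative, DESeq2 1.42.0. Library values were compared with 2-sided exact permutation tests (Python 3.11.15, numpy 2.4.6, pandas 2.3.3). p-values were adjusted by Benjamini-Hochberg and called at 0.05. Gene starts are the most upstream RefSeq starts (chromosome 18 and some genes are not in the table used, and gene spans stand in). The tests were tried on simulated data.

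Members, lists and tests were chosen with earlier results of these data known. Named regions are the 4 shorter and 4 longer with the largest change, the 4 longest of each genotype alone, up to 3 per direction by score, and those at the 2 largest H3K4me3 losses; 2 regions that the rule names are not reported here. Named genes are listed genes that were called or did not overlap, and the 5 per direction with the largest change at gene starts. The shoulder, reach and centre measures, and genes named for them, were added after the data had been seen. Same-numbered libraries did not deviate together (correlations of 0.0273, 6.27e-05, 0.0171 and 0.00332), so no pairing was assumed.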

Additional observations from a re-analysis of the deposited data

Results flagged for a closer look

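Of 144 groups of 4 libraries examined, 7 held a library far from the rest by Dixon's criterion, which chance gives in about 1 in 20 groups. Among the controls, Control 1 stood above the others in the share of H3K4me3 regions covered by H3K4me1 (78.0% against 74.4 to 74.9%) and in the share of H3K4me3 centres (78.8% against 75.7 to 76.2%). At the smaller Epha4 region on chromosome 1 (start 77515335), cKO 1 had 3374 bp and the other cKO libraries 2171 to 2317 bp.

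At gene starts, Control 1 had 2146 bp at Gm39210 (878 to 929 bp in the other controls), 493 bp at Gm38850 (1210 to 1276 bp) and 177 bp at Stxbp5 (0 bp). Control 2 had 637 bp at Bcl11a (0 to 44 bp). In these 4 genes the control libraries stayed apart from all cKO libraries whichever control is considered.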

How the results depend on the processing

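No paired design was assumed. In an exact test blocked on replicate number (replicate block) the smallest p is 0.125, and within lane 3 alone (3 against 3) it is 0.1. For the exact tests, those settings can therefore end a call by construction. With the block the log2 values were 1.29 for strong peaks, 0.33 and -0.54 for wide-region centres and flanks, -0.52 for the downstream shoulder and -0.64 for its ratio to distal flanks. For the reach classes of 1 to 2, 2 to 3.5, 3.5 to 6 and 6 kb or more the block gave shoulder values of -0.99, -0.42, 0.15 and 0.57 and shifts of the maximum of -0.1, -0.425, -1.65 and -4.125 kb. Lane 3 alone gave 1.1198, 0.33, -0.56, -0.52 and -0.64, then -0.99, -0.42, 0.16 and 0.59, and shifts of -0.1, -0.4, -1.67 and -3.93 kb. Counts of calls with the block were 671 regions, 0 by score, 11 gene starts, 996 shoulders, 57 within 250 bp, 2428 H3K4me3 regions and 327 RNA genes. Lane 3 alone gave 3206, 0, 199 and, within 250 bp, 173, with 3029 regions in one genotype alone.

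With peaks of -log10 q at least 5, log2 values were 1.29 for peak number, 1.42 for covered length, 0.052 for the median score, 1.13 for H3K4me3 regions, 1.11 for their centres, 1.95 for distal H3K27ac regions and 1.32 for shortened H3K4me3 regions. They turned to 0.82 in wide-region flanks and to 0.83 and 0.97 in the downstream and upstream shoulders, and to 1.22, 0.41 and 0.89 for a reach under 1, 1 to 2 and 2 to 3.5 kb. The shift of the maximum was then 0, -0.15 and -1.925 kb for 1 to 2, 2 to 3.5 and 6 kb or more. That setting called 698 regions by covered length and 665 in one genotype alone; the cause was not tested. With the same number of peaks per library the median fold enrichment turned to 0.0021 and the shoulder under 1 kb was -0.18 (-0.29 with classes from the cKO). Wide-region centres gave 0.17 from 1000 bp. The 2 regions on chromosome 15 (68929187) and chromosome 1 (77483998) turned to -0.00068 and -0.054 when centred.

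A peak in every library gave 1105 regions, and presence over at least 50% of a region 2318. Score calls were 117 by fold enrichment, 30 without centring and 6 by pileup. Gene starts within 1 kb gave 159 and DESeq2 840 RNA genes. Leaving out 1 library at a time gave 2233 to 3035 regions (3035 without cKO 3), 0 to 1 by score, 207 to 368 gene starts, 115 to 228 within 250 bp, 1706 to 2285 in one genotype alone and 207 to 482 RNA genes. It gave log2 ranges of -0.0159 to 0.0572 for peak width, -0.039 to 0.0025 for fold enrichment, 1.02 to 1.57 for strong peaks, 0.075 to 0.12 for H3K4me3 centres, 0.064 to 0.11 for H3K4me3 regions, 0.11 to 0.16 for shortened ones, 0.30 to 0.39 for wide-region centres, and 0.13 to 0.17 and -0.21 to -0.11 for the shoulders at 3.5 to 6 and under 1 kb. Of the values for single genes, regions and score columns, 1006 kept direction and side of the threshold, 166 lost a call, 18 gained one and 7 changed sign.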

Other observations

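Upstream of marked gene starts the H3K4me1 shoulder was also lower in the cKO. The share covered from 1.5 to 3.5 kb upstream was 24.7, 23.2, 22.3 and 22.6% in Control 1 to 4 and 20.2, 20.7, 16.8 and 18.7% in cKO 1 to 4, without overlap (log2 -0.28, exact permutation p = 0.0286, adjusted p = 0.0476 over 10 measures). In contrast, the downstream window of the 13073 unmarked starts had 9.89 to 10.9% in the controls and 9.87 to 12.1% in the cKO (log2 0.12, exact permutation p = 0.2).

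Within 250 bp of the start, 27 genes had no H3K4me1 in any control and the whole 501 bp window covered in every cKO library, and 5 had the reverse. Among the 27 were Cacna1e, which encodes an R-type calcium channel (start at chr1:154725920), Eef2k, the kinase of elongation factor 2, Bcl11a and Hivep3, which encode zinc-finger transcription factors, and Cdc25a, a cell-cycle phosphatase. These 5 are examples, since all 27 had equal values. The 5 that lost the window were Iqcn (start at chr8:70702025), with RNA of 0.132 CPM in the controls and 0.053 CPM in the cKO, and the predicted genes Gm30447, Gm33106, Gm40369 and Gm46265. Neurod6, a neuronal transcription factor, rose there from 0 bp in each control to 501, 501, 257 and 501 bp in cKO 1 to 4 (log2 2.40), where the controls have no spread.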
